A study of Mus musculus with 4 samples.

Results

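The collagen chain genes are the protein-coding genes of the deposited table whose symbol names a numbered collagen type and chain, from Col1a1 to Col28a1. There were 44 of them among 39179 gene identifiers, of which 22740 were protein-coding. By the role of the protein they were grouped as 8 fibrillar chains, 8 basement membrane chains, 7 cartilage chains and 21 other chains. The RNA came from mouse cardiac progenitor cells, made by differentiating iGATA6 embryonic stem cells, a line that carries an inducible Gata6 gene. One group of 2 libraries came from cells kept in DMSO, the solvent, at 0.1% of the medium. The other 2 libraries came from cells kept in 10 µM cucurbitacin I hydrate, a triterpene from plants that inhibits JAK2 and STAT3 signalling, which the series title calls a screening hit. Treatment began on day 6 and lasted 2 days, and the labels give the harvest as day 8 in the sample titles and day 10 in the extraction protocol. The sources used here do not say whether the line is a single clone. No label says that the libraries of a group were separate cultures, so p-values speak only of how far these libraries differ, which may be technical.

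Collagens are proteins of the extracellular matrix built from chains that wind in threes into a triple helix. Fibrillar collagens, such as types I, III and V, assemble into the load-bearing fibrils of connective tissue. Type IV collagen forms the sheet-like network of basement membranes, on which epithelia, endothelium and muscle cells rest. Types II, IX, X and XI are best known from cartilage, and types II and XI are themselves fibril-forming. In the heart, fibroblasts are a main source of types I and III, while cardiomyocytes, endothelium and smooth muscle are each surrounded by basement membrane. In bulk RNA, fewer cells of a type and less RNA per cell cannot be told apart.

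Depth was even, with 23759431 to 27069312 counts per library. Levels are given in CPM, a gene's count relative to the library's TMM-scaled total, in the order DMSO replicate 1, DMSO replicate 2, cucurbitacin I replicate 1 and cucurbitacin I replicate 2. Levels of single collagen genes were compared with each other as CPM per kilobase of the longest protein-coding transcript. Shares of raw counts and summed CPM of marker lists are not scaled by length, so longer transcripts weigh more in them. A gene was said to have risen or fallen where edgeR's quasi-likelihood test gave a Benjamini-Hochberg adjusted p below 0.05 over the 16722 genes tested. Permuting 2 and 2 libraries exactly allows no p under 0.33 for 1 gene, and the calls therefore depend on edgeR's pooling of the spread over genes. Over all genes tested the log2 fold change had a median of -0.01, and of -0.24 when libraries were scaled by their totals alone, so every change is relative to the former.

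In cucurbitacin I the collagen counts were spread differently over the chains. Of the 44 chain genes, 40 had enough counts to be tested, 5 rose, 14 fell and 21 did not pass. Over all genes tested 13.9% rose and 19.5% fell, 33.4% in all. Among the 40 tested collagens the called share was above that of all genes on the falling side and close to it on the rising side, and the members were not tested as a set. The median log2 fold change was -0.68 over the 40 tested collagens and -0.01 over all genes tested. The CPM of the groups did not overlap in 30 of the 40, where they did not overlap in 73.0% of all genes tested. Of the 40 tested collagens, 8 were higher and 22 lower in cucurbitacin I without overlap, where 35.6% and 37.4% of all genes tested were.

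Of all counts, the 44 genes together held 0.545% and 0.660% under DMSO and 0.560% and 0.480% under cucurbitacin I. These raw shares overlap between the groups. Per kilobase of transcript the summed share was 0.253% and 0.299% in DMSO and 0.226% and 0.195% in cucurbitacin I. It was lower in both treated libraries, but as a share of each library's own total it also depends on the other genes. Unlike the CPM, these shares were not scaled by the TMM factors, 1.1066 and 1.0631 in DMSO and 0.912 and 0.9321 in cucurbitacin I. They therefore do not show a fall in the total collagen level. Basement membrane chains made up 40.9% and 41.2% of the collagen counts in DMSO and 67.3% and 58.7% in cucurbitacin I. Fibrillar chains took 38.7% and 43.4% in DMSO and 22.7% and 30.7% in cucurbitacin I. Cartilage chains went from 14.1% and 8.32% to 2.83% and 3.53%. In these 3 classes the libraries of the groups did not overlap. The other chains held between 6.23% and 7.17% in every library. Col4a1 and Col4a2 alone supplied 18.8% and 18.5% of collagen counts in DMSO and 51.2% and 38.6% in cucurbitacin I. The shares are parts of a fixed whole, so this larger part by itself lowers the shares of the other classes. In raw counts, fibrillar chains had 57207 and 73356 in DMSO and 33959 and 35065 in cucurbitacin I. Cartilage chains had 20810 and 14040 in DMSO and 4245 and 4028 in cucurbitacin I. Of these cartilage counts, Col9a1 alone held 10809 and 6156 in DMSO and 33 and 53 in cucurbitacin I. The 95% Wilson interval of any of these shares was at most 0.286 percentage points to either side and covers counting error only.

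**Figure D1:**
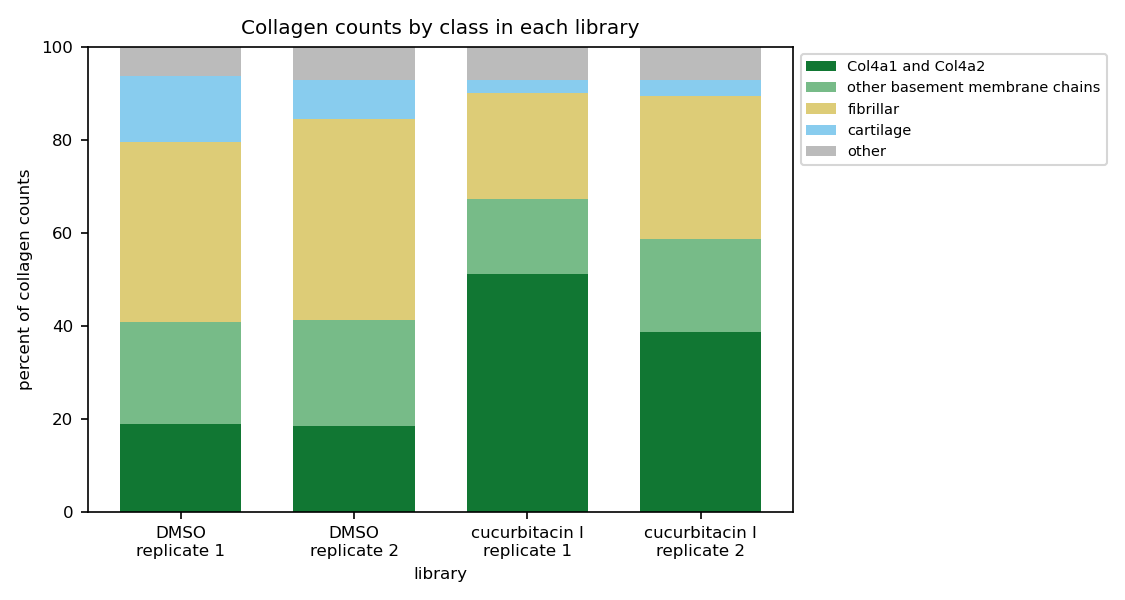
Stacked bars give the percent of all collagen counts held by each class in each of the 4 libraries, from 0 to 100%, with Col4a1 and Col4a2 drawn apart from the other basement membrane chains. Col4a1 and Col4a2 hold 18.8% and 18.5% in DMSO and 51.2% and 38.6% in cucurbitacin I, while the fibrillar and cartilage bands are narrower in cucurbitacin I.

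Col4a1 and Col4a2 encode the chains of the commonest type IV collagen, found in nearly all basement membranes, and both rose. Col4a1 (ENSMUSG00000031502, mm10 chromosome 8, 11198423 to 11312826, minus strand) was at 543 and 660 CPM in DMSO and 1950 and 1140 CPM in cucurbitacin I. The groups did not overlap, and the cucurbitacin I libraries differed from each other more than the DMSO libraries did. Its log2 fold change was 1.36 (SE 0.28, adjusted p = 0.0194). Col4a2 (ENSMUSG00000031503, chromosome 8, 11312805 to 11449287, plus strand) was at 383 and 490 CPM in DMSO and 1190 and 848 CPM in cucurbitacin I, again without overlap and again highest in cucurbitacin I replicate 1. Its log2 fold change was 1.22 (SE 0.22, adjusted p = 0.0133). Neither call held in every subset of libraries: without DMSO replicate 1 the adjusted p was 0.106 for Col4a1 and 0.0748 for Col4a2, and without DMSO replicate 2 it was 0.0546 for Col4a1. The log2 fold change stayed at 1.06 or above in these cases. Among the fits with a library left out it was smallest without cucurbitacin I replicate 1, at 0.93 for Col4a1 and 0.97 for Col4a2.

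The genes of this pair lie head to head, and their first exons overlap. RefSeq places the Col4a2 start at 11312805 and the Col4a1 start at 11312826 of GRCm38.p6, so both transcripts include the same 22 bases on opposite strands. This stretch is shown because it is where the transcription units of both risers meet. It is written on the plus strand, chr8:11312801-11312830, with the shared bases in capitals.
Col4a1 and Col4a2: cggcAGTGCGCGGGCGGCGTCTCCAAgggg
The sources used here do not say whether counting used the strand, and the overlap is a small part of either transcript. The ratio of Col4a1 to Col4a2 in counts per kilobase was 1.38 and 1.31 in DMSO and 1.60 and 1.31 in cucurbitacin I. These ratios overlap between the groups, so no change in the balance of the pair was separated from the spread of the libraries.

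The other type IV chains did not pass. Col4a5 and Col4a6, also a head-to-head pair, lie 1308 bases apart on chromosome X and encode chains of more restricted basement membranes. Col4a5 was at 248 and 432 CPM in DMSO and 438 and 457 CPM in cucurbitacin I (log2 fold change 0.40, adjusted p = 0.290). It passed only without DMSO replicate 2 (0.85, adjusted p = 0.0286). Col4a6 was at 76.4 and 108 CPM in DMSO and 77.4 and 74.1 CPM in cucurbitacin I (-0.28, adjusted p = 0.257), and it passed only when libraries were scaled by their totals (-0.51, adjusted p = 0.0499). The ratio of Col4a5 to Col4a6 per kilobase was 3.30 and 4.06 in DMSO and 5.76 and 6.26 in cucurbitacin I, without overlap. Col4a3 and Col4a4, the head-to-head pair known from the kidney glomerulus, were near the lower limit of the test, at 8 to 22 counts for Col4a3 and 9 to 56 for Col4a4. In both groups replicate 2 was the higher library for both genes. Another gene on the opposite strand, C430014B12Rik, overlaps Col4a3 and holds 75.9% as many counts.

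Col15a1 and Col18a1 encode the multiplexins, collagens of the basement membrane zone whose C-terminal fragments include endostatin in the case of Col18a1. Both fell. Col18a1 (ENSMUSG00000001435, chromosome 10, 77052178 to 77166548) was at 766 and 861 CPM in DMSO and 474 and 502 CPM in cucurbitacin I, 2 tight groups that did not overlap (log2 fold change -0.74, SE 0.13, adjusted p = 0.0126). Without DMSO replicate 2 the adjusted p was 0.055. Col15a1 was a rare transcript, at 2.20 and 4.31 CPM in DMSO and 0.451 and 0.452 CPM in cucurbitacin I, that is 66 and 117 counts against 11 and 10 (-2.83, SE 0.46, adjusted p = 0.0104). The basement membrane class as a whole thus held 2 risers, 2 falls and 4 genes that did not pass. Over all genes tested 13.9% rose and 19.5% fell. The class had a median log2 fold change of -0.05, and its larger share of collagen counts came from Col4a1 and Col4a2.

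Per kilobase, Col3a1 and Col18a1 were the most abundant collagen transcripts in DMSO, with group means of 156 and 145 CPM per kilobase, followed by Col4a1 at 90.9, Col1a2 at 85.0, Col9a1 at 76.6 and Col4a2 at 67.6. The libraries of Col3a1 (140 and 172) and Col18a1 (137 and 154) overlap, as do those of Col4a1, Col1a2 and Col9a1, so the order among these neighbours is not fixed by 2 libraries. In cucurbitacin I the order began with Col4a1 at 234 and Col4a2 at 158 CPM per kilobase, whose libraries overlap with each other (172 to 296 and 131 to 185) and lie above those of every other chain. Col3a1 (98.0) and Col18a1 (87.2) came next. Col1a2 was at rank 4 in DMSO and rank 15 in cucurbitacin I, and Col9a1 at rank 5 and rank 28 among the 44 genes.

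**Figure D2:**
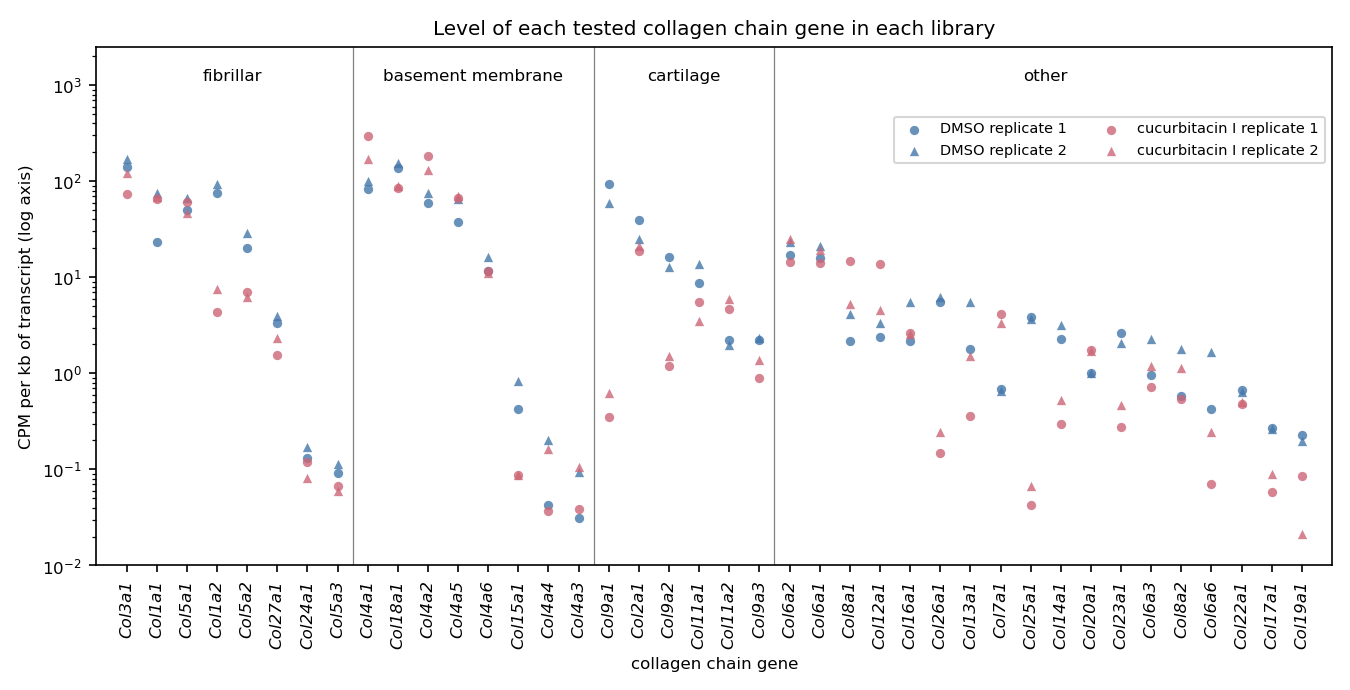
Each point is 1 library, with the level of each of the 40 tested collagen genes in CPM per kilobase of transcript on a log axis, ordered by class and by mean level. Col9a1 and Col1a2 sit high in DMSO (blue) and far lower in cucurbitacin I (red), while Col4a1 and Col4a2 are higher in cucurbitacin I.

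Among fibrillar chains, the partners of type I collagen parted. Type I collagen is normally a trimer of Col1a1 and Col1a2 chains, the main fibrillar collagen of bone, skin, tendon and scar. Col1a2 (ENSMUSG00000029661, chromosome 6, 4504814 to 4541543) was at 404 and 505 CPM in DMSO and at 23.1 and 40.6 CPM in cucurbitacin I. Every DMSO library lay far above every cucurbitacin I library, and the log2 fold change was -3.84 (SE 0.31, adjusted p = 0.00234), a 14.3-fold lower level. Col1a1 (ENSMUSG00000001506, chromosome 11, 94936224 to 94953042) was at 139 and 447 CPM in DMSO and 385 and 411 CPM in cucurbitacin I. The cucurbitacin I libraries lay between the DMSO libraries, which differed 3.21-fold from each other, and the gene did not pass (log2 fold change 0.44, 95% interval -0.82 to 1.70, adjusted p = 0.532). Without DMSO replicate 1 its log2 fold change was -0.17 (adjusted p = 0.529), and without DMSO replicate 2 it was 1.52 (adjusted p = 0.00979).

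The ratio of Col1a1 to Col1a2 in counts per kilobase was 0.311 and 0.799 in DMSO and 15.0 and 9.14 in cucurbitacin I. Both cucurbitacin I libraries lay above both DMSO libraries, and the geometric mean of the ratio was 23.5-fold higher. The direction did not depend on which DMSO library was taken, although the DMSO libraries differed in Col1a1. Length enters the level of the ratio and not its change. With the union of all annotated exons as length the mean ratio was 1.17 in DMSO and 25.4 in cucurbitacin I.

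**Figure D3:**
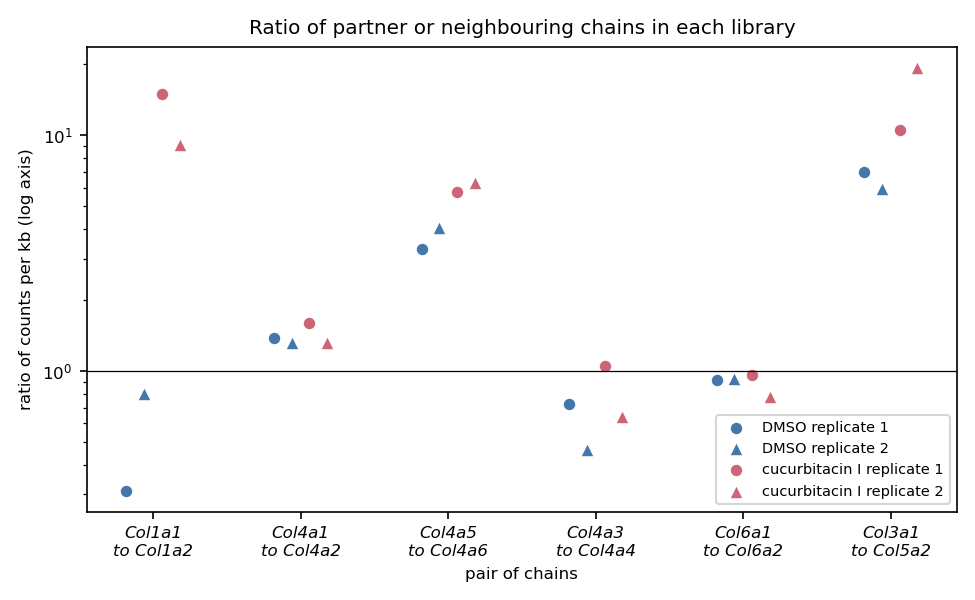
For 6 pairs of chains that assemble together or whose genes are neighbours, each point is the ratio of counts per kilobase in 1 library on a log axis, and the line marks equal levels. Col1a1 to Col1a2 runs from 0.311 and 0.799 in DMSO to 15.0 and 9.14 in cucurbitacin I. For Col4a1 to Col4a2 and Col6a1 to Col6a2 the ratios of the groups overlap.

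Types III and V, which co-assemble with type I in fibrils, were also uneven. Col5a2 fell, from 133 and 193 CPM in DMSO to 46.8 and 41.7 CPM in cucurbitacin I (log2 fold change -1.88, SE 0.20, adjusted p = 0.00378). Its usual partner Col5a1, the chain that limits fibril diameter, was at 427 and 565 CPM in DMSO and 511 and 394 CPM in cucurbitacin I, overlapping levels that did not pass (-0.13, 95% interval -0.63 to 0.36, adjusted p = 0.631). Col3a1, the homotrimeric collagen of distensible tissues such as vessel walls, is the tail-to-tail neighbour of Col5a2 on chromosome 1, with 24614 bases between the genes. Its levels were 780 and 958 CPM in DMSO and 412 and 678 CPM in cucurbitacin I. These did not overlap, but the gene did not pass (-0.67, SE 0.26, adjusted p = 0.101). Adjusted p-values of Col3a1 were below the threshold with DESeq2 (0.0325), in the unfiltered table (0.0468), under a replicate block (0.0196), after scaling by totals (0.0385) and without cucurbitacin I replicate 2 (0.0117), with log2 fold changes of -0.67 to -1.07. The ratio of Col3a1 to Col5a2 per kilobase was 6.97 and 5.90 in DMSO and 10.5 and 19.3 in cucurbitacin I, higher in both treated libraries.

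Col27a1, a fibrillar collagen best known from developing cartilage, fell from 25.3 and 30 CPM to 11.9 and 17.8 CPM (log2 fold change -0.90, SE 0.22, adjusted p = 0.0299), which no longer passed when DMSO replicate 1 (adjusted p = 0.0816) or 2 (0.118) was left out. Col24a1 and Col5a3 were low in all libraries, with 13 to 33 and 8 to 19 counts, and did not pass (-0.56 and -0.70). In all, 3 of the 8 fibrillar genes fell and 0 rose, where 19.5% and 13.9% of all genes tested did. The other 5 did not pass, and the class had a median log2 fold change of -0.68. With DESeq2, and with edgeR at an unadjusted p below 0.05, the number of fibrillar genes that rose was also 0 and 4 fell. Without DMSO replicate 2, Col1a1 passed as higher.

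Cartilage chains held the largest fall among the collagens. Type IX collagen is a heterotrimer of Col9a1, Col9a2 and Col9a3 chains that decorates the surface of type II fibrils, and all 3 genes fell, by very different factors. Col9a1 (ENSMUSG00000026147, chromosome 1, 24177610 to 24252684) was at 361 and 227 CPM in DMSO and 1.35 and 2.39 CPM in cucurbitacin I, that is 10809 and 6156 counts against 33 and 53. Its log2 fold change was -7.30 (SE 0.38, adjusted p = 0.00128), a 158-fold lower level. Col9a2 was at 47.2 and 37.4 CPM in DMSO and 3.44 and 4.43 CPM in cucurbitacin I (-3.43, SE 0.20, adjusted p = 0.00156). Col9a3 was at 6.75 and 7.14 CPM in DMSO and 2.75 and 4.25 CPM in cucurbitacin I (-0.99, SE 0.27, adjusted p = 0.0400). The groups did not overlap in any of the 3 genes. The call of Col9a3 was lost without either DMSO library (adjusted p = 0.136 in both cases) or without cucurbitacin I replicate 1 (0.104), and Tcfl5 on the opposite strand overlaps it and holds 19.2% as many counts.

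In DMSO the chains of type IX were not at equal levels: Col9a1 stood at 76.6 CPM per kilobase against 14.5 for Col9a2 and 2.28 for Col9a3. In cucurbitacin I their order turned, with group means of 0.489 for Col9a1, 1.35 for Col9a2 and 1.15 for Col9a3. The libraries of Col9a1 (0.353 and 0.625) lay below those of both partners, which overlap with each other.

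Col11a1 and Col11a2, chains of type XI collagen that nucleate thin fibrils, went opposite ways. Col11a1 fell from 67.3 and 105 CPM to 42.8 and 26.8 CPM (log2 fold change -1.31, SE 0.30, adjusted p = 0.0240), although not past the threshold without DMSO replicate 2 (-0.95, adjusted p = 0.0781). Col11a2 rose from 13.4 and 12.0 CPM to 28.0 and 35.6 CPM (1.32, SE 0.16, adjusted p = 0.00555). Col2a1, the main cartilage collagen, was at 199 and 129 CPM in DMSO and 95.4 and 108 CPM in cucurbitacin I, without overlap, and did not pass (-0.69, SE 0.22, adjusted p = 0.0598). DESeq2 called it lower (0.0162), as did edgeR on the unfiltered table (0.0235), with scaling by totals (0.0253) and without DMSO replicate 2 (0.0182). Col10a1, the marker of hypertrophic cartilage, had 2 and 0 counts in DMSO and 5 and 3 in cucurbitacin I and was not tested, and the opposite-strand gene Nt5dc1 overlaps it with far more counts.

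Cartilage genes other than collagens were also read. Of 8 cartilage markers, 3 were tested and 2 of them fell, where 19.5% of all genes tested fell. The chondrogenic transcription factor gene Sox9 went from 23.5 and 22.1 CPM to 3.69 and 4.79 CPM (log2 fold change -2.43, adjusted p = 0.00226). The link protein gene Hapln1 went from 2.77 and 6.74 to 0.697 and 0.587 CPM (-2.87, adjusted p = 0.0142). Matn3 was at 0.568 and 1.07 CPM in DMSO and 0.656 and 0.542 CPM in cucurbitacin I and did not pass (-0.43, adjusted p = 0.490). The other markers were too low to be tested. Acan, which encodes the main cartilage proteoglycan, stood at 0.334 and 0.294 CPM in DMSO and 0.041 and 0.0904 CPM in cucurbitacin I. Comp had 9 and 3 counts in DMSO and 9 and 6 in cucurbitacin I, and Chad 7 and 7 against 3 and 4. Matn1 had 0 and 3 counts in DMSO and 1 and 3 in cucurbitacin I, and Lect1 had 2 and 5 in DMSO and 0 in both cucurbitacin I libraries. The summed level of the 8 markers, most of it from Sox9, was 27.8 and 30.9 CPM in DMSO and 5.62 and 6.60 CPM in cucurbitacin I. The part of these markers in the collagen result was not tested.

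Promoter windows of 35 of the 44 genes were in the RefSeq table, 38 windows in all, each from 250 bases before to 50 bases after a start on GRCm38.p6. The bases before the start are shown for Col9a1, which has 2 starts, and Col9a2, which fell together, for Col1a2, which fell without its partner, and for Col7a1, which had the largest rise. Capitals mark the CCAAT box (CCAAT), the TATA box (TATAAA) and the GC box (GGGCGG) on either strand. The windows are chr1:24177360-24177609, chr1:24194953-24195202, chr4:121039316-121039565, chr6:4505368-4505617 and chr9:108953336-108953585, all on the plus strand.
Col9a1 upstream start: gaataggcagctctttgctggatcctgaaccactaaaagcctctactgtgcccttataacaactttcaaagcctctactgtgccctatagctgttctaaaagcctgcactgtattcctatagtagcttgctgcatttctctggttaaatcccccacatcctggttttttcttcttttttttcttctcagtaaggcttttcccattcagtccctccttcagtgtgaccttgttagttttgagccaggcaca
Col9a1 downstream start: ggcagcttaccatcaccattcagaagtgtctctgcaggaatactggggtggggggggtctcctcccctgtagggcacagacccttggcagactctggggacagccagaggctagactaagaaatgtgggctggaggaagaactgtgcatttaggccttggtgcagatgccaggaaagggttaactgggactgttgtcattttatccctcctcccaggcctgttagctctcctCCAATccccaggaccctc
Col9a2: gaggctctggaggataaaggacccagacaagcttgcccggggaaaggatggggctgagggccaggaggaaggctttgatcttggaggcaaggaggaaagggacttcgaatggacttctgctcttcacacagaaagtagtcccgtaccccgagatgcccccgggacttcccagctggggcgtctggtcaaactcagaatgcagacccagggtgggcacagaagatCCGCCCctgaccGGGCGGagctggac
Col1a2: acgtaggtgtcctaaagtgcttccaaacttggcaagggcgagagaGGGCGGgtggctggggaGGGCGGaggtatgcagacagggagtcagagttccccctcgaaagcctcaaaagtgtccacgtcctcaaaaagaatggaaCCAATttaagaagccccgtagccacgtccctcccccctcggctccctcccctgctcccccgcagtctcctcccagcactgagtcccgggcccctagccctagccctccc
Col7a1: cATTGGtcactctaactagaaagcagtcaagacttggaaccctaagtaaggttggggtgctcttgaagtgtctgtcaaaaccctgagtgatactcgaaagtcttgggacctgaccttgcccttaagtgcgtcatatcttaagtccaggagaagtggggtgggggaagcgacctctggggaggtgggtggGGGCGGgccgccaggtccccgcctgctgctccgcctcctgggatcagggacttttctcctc
None of the 3 motifs is in the upstream Col9a1 stretch shown, and the downstream one holds a CCAAT box near the start. Col9a2 holds a pair of GC boxes close to the start, Col1a2 a pair of GC boxes and a CCAAT box, and Col7a1 one of each. Over the full windows, a GC box was present in 23 of 38 collagen windows, or 60.5%, and in 35.7% of all 32851 windows. The collagen windows were also richer in G and C, with a median of 59.8% against 52.7%. A CCAAT box was in 34.2% of collagen windows and 37.4% of all, and a TATA box in 13.2% and 13.6%. The STAT motif TTCNNNGAA was in the windows of Col28a1 and Col6a5 (5.26% of collagen windows, 8.30% of all), neither of which was tested, and the CArG box, the motif bound by SRF, was in that of Col6a4 (2.63% and 1.63%). A match is a description of these letters in these windows.

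**Figure D4:**
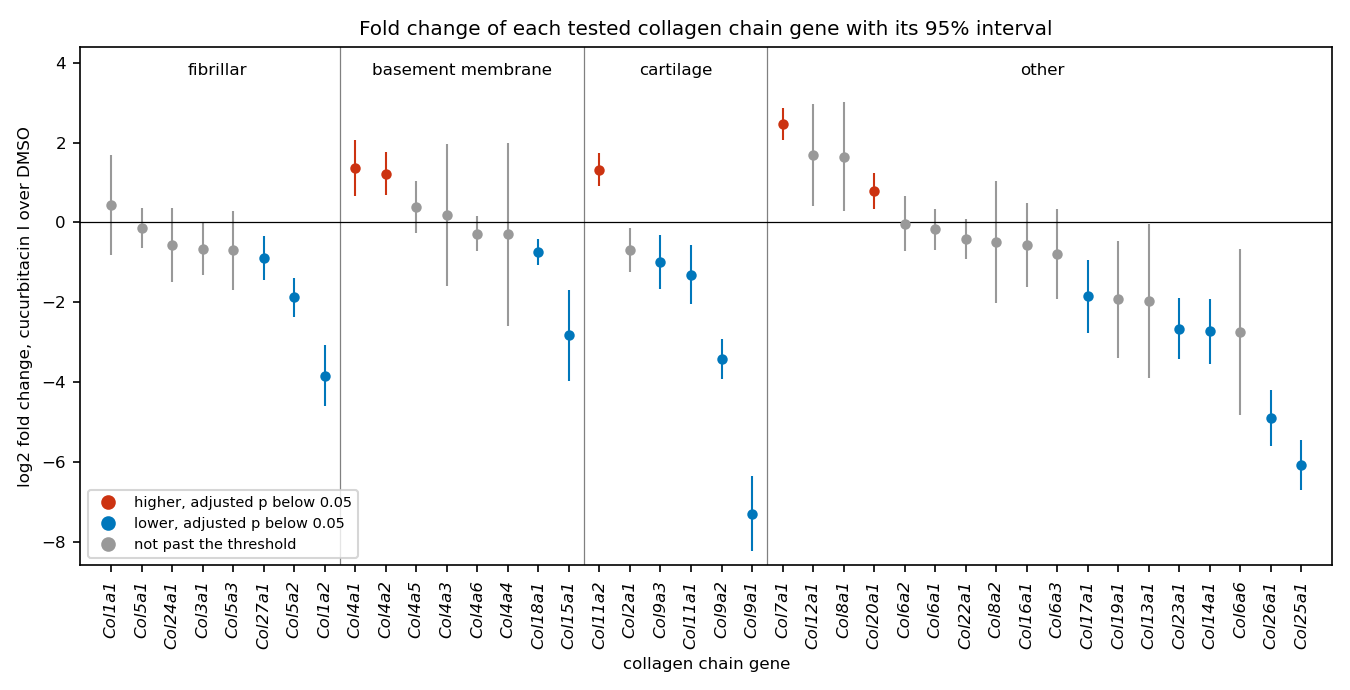
Points give the log2 fold change of cucurbitacin I over DMSO for each of the 40 tested collagen genes by class, with bars for the 95% interval of the single gene, not adjusted for the number of genes. The 5 genes that rose are Col4a1, Col4a2, Col11a2, Col7a1 and Col20a1, and the falls reach -7.30 for Col9a1.

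Among the remaining chains, membrane-spanning collagens were mostly lower. These are transmembrane proteins with a collagenous ectodomain: Col13a1 of muscle-nerve junctions, Col17a1 of hemidesmosomes, Col23a1, and Col25a1, whose ectodomain is found in amyloid plaques and which is needed for motor innervation of muscle. Of the 4 genes, 3 fell and 0 rose with edgeR, where 19.5% and 13.9% of all genes tested did. All 4 were lower and 0 higher with DESeq2 or at an unadjusted p below 0.05. Col25a1 (ENSMUSG00000058897, chromosome 3, 130180891 to 130599877) was at 25.8 and 24.4 CPM in DMSO and 0.287 and 0.452 CPM in cucurbitacin I, or 771 and 663 counts against 7 and 10. The log2 fold change was -6.08 (SE 0.25, adjusted p = 0.000741), the second largest fall among the collagens tested. Col23a1 fell from 14.8 and 11.9 CPM to 1.56 and 2.67 CPM (-2.66, SE 0.31, adjusted p = 0.00470). Col17a1, at 45 and 40 counts against 8 and 11, fell by 1.85 on the log2 scale (SE 0.37, adjusted p = 0.0171), which no longer passed when DMSO replicate 1 (0.0854) or 2 (0.0652) was left out, or cucurbitacin I replicate 1 (0.0725). Col13a1 was at 5.65 and 17.3 CPM in DMSO and 1.15 and 4.74 CPM in cucurbitacin I (-1.97, SE 0.78, adjusted p = 0.105). Blocking on the replicate number brought it past the threshold (-2.04, adjusted p = 0.00283), as did DESeq2 (0.0202), the unfiltered table (0.0418) and leaving out cucurbitacin I replicate 2 (-3.31, 0.0204).

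Col26a1, a small collagen with an EMI domain, fell from 15.6 and 17.2 CPM to 0.410 and 0.678 CPM (log2 fold change -4.91, SE 0.28, adjusted p = 0.00152), a 30.1-fold lower level. The tested collagens below -3 on the log2 scale were therefore Col9a1, Col25a1, Col26a1, Col1a2 and Col9a2, from 4 different structural groups. Over all genes tested, 4.49% lay below -3.

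Col7a1, which encodes the anchoring fibrils that fasten epithelium to the underlying stroma, had the largest rise. It was at 6.35 and 6.07 CPM in DMSO and 38.4 and 31.1 CPM in cucurbitacin I, with groups far apart and little spread within them. The log2 fold change was 2.48 (SE 0.16, adjusted p = 0.00185), a 5.59-fold higher level. Col7a1 passed in all alternatives tried, including each library left out. Its level stayed moderate, at 3.75 CPM per kilobase in cucurbitacin I against 234 for Col4a1.

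Collagens that attach to fibrils rather than form them went both ways. Col14a1, found in dense connective tissue, fell from 14.7 and 20.5 CPM to 1.93 and 3.39 CPM (log2 fold change -2.73, SE 0.33, adjusted p = 0.00514). Col12a1, its close relative in tendon and in loaded tissue, was at 27.4 and 38.3 CPM in DMSO and 159 and 52.9 CPM in cucurbitacin I. The groups did not overlap, but the treated libraries differed 3-fold, and the gene did not pass (1.69, SE 0.51, adjusted p = 0.0527). It passed without a filter (0.0138) and without cucurbitacin I replicate 2 (2.28, adjusted p = 0.000779). Col20a1 rose from 5.01 and 5.08 CPM to 8.77 and 8.58 CPM (0.78, SE 0.18, adjusted p = 0.0248), a small change with very tight replicates. Its call was lost with library totals (0.0723) and without any 1 of the 4 libraries (adjusted p = 0.0509 to 0.125). Col16a1 was at 11.4 and 28.7 CPM in DMSO, a 2.53-fold difference between replicates, and at 13.6 and 13.3 CPM in cucurbitacin I (-0.57, adjusted p = 0.338). Leaving out DMSO replicate 1 made it pass as lower (-1.09, adjusted p = 0.0300), and leaving out DMSO replicate 2 turned its sign (0.25, 0.460). Col22a1 was at 5.98 and 5.67 CPM in DMSO and 4.22 and 4.47 CPM in cucurbitacin I, without overlap, and did not pass (-0.42, adjusted p = 0.158). Col19a1 had 29 and 23 counts in DMSO and 9 and 2 in cucurbitacin I, a ratio of scaled counts of 3.85 (95% counting interval 1.99 to 8.19), and did not pass (adjusted p = 0.0538). Its adjusted p was below the threshold under a replicate block (0.0385), in limma-voom (0.0491), after scaling by totals (0.0325), in the unfiltered table (0.0412) and without cucurbitacin I replicate 1 (0.0338). The gene lies tail to tail with Col9a1, 9205 bases away.

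Type VIII collagen forms hexagonal networks in vessel walls and in the cornea, from Col8a1 and Col8a2 chains. Col8a1 was at 11 and 21.5 CPM in DMSO and 75.0 and 27 CPM in cucurbitacin I, with no overlap and a 2.78-fold difference between the treated libraries, and did not pass (log2 fold change 1.65, SE 0.54, adjusted p = 0.0658). As with Col12a1, it passed without a filter (0.0203) and without cucurbitacin I replicate 2 (2.21, adjusted p = 0.00454), and cucurbitacin I replicate 1 was the high library. Col8a2 did not pass (-0.49, adjusted p = 0.569).

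Of type VI collagen, a beaded microfibril around cells, 4 of 6 chains were tested and none passed with edgeR, while 1 was lower with DESeq2 and at an unadjusted p below 0.05. Col6a1 was at 64.8 and 87.5 CPM in DMSO and 57.4 and 78.7 CPM in cucurbitacin I (log2 fold change -0.16, 95% interval -0.68 to 0.35, adjusted p = 0.574). Col6a2 was at 80.0 and 108 CPM in DMSO and 67.8 and 116 CPM in cucurbitacin I (-0.03, 95% interval -0.72 to 0.66, adjusted p = 0.937). For both chains the levels of the groups overlapped. Col6a1 and Col6a2 are neighbours in the same orientation on chromosome 10, and their ratio per kilobase was 0.919 and 0.923 in DMSO and 0.961 and 0.773 in cucurbitacin I. Col6a3, the third chain of the usual trimer, was at 9.79 and 23.2 CPM in DMSO and 7.33 and 11.9 CPM in cucurbitacin I (-0.78, adjusted p = 0.236), passing only with a replicate block (-0.70, 0.0376). Col6a6, which can replace Col6a3, was at 3.74 and 14.8 CPM in DMSO and 0.615 and 2.17 CPM in cucurbitacin I (-2.74, SE 0.84, adjusted p = 0.0545). DESeq2 called it lower (0.00168), as did edgeR under a replicate block (0.00179), on the unfiltered table (0.0142), after scaling by totals (0.0332), without DMSO replicate 1 (0.0361) and without cucurbitacin I replicate 2 (0.0262). The genes not tested besides Col10a1 were Col6a4 (2 to 7 counts per library), Col6a5 (3 and 6 counts in DMSO, 0 in cucurbitacin I) and Col28a1 (8 and 3 against 1 and 1).

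A group of collagens differed strongly between replicate libraries. In DMSO, replicate 2 was more than 2-fold above replicate 1 in 8 of the 40 tested collagens, namely Col1a1, Col4a3, Col4a4, Col6a3, Col6a6, Col8a2, Col13a1 and Col16a1, where 2.47% of all genes tested were. No collagen tested differed that much in the opposite direction in DMSO, where 1.88% of all genes tested did. In cucurbitacin I, replicate 2 was more than 2-fold above replicate 1 in 5 of the 40 (4.41% of all genes), and all 5, Col4a3, Col4a4, Col6a6, Col8a2 and Col13a1, were among the 8. Both groups showed it together in 0.730% of all genes tested. Replicate 1 was more than 2-fold above replicate 2 in cucurbitacin I for 3 collagens, Col8a1, Col12a1 and Col19a1 (3.32% of all genes). These patterns were picked out after their values were seen.

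Markers of the epicardium, the outer heart layer that gives rise to fibroblasts and mural cells, moved in the same way between the DMSO libraries. Of 8 such genes 7 were tested, 2 fell and 0 rose, beside 19.5% and 13.9% of all genes tested. Their summed level was 45.5 and 193 CPM in DMSO and 53.9 and 85.0 CPM in cucurbitacin I. Wt1 was at 4.11 and 19.7 CPM in DMSO and 7.91 and 11.5 CPM in cucurbitacin I, and Tbx18 at 15.5 and 84.2 against 31.3 and 55.1 CPM. All 8 markers were higher in DMSO replicate 2 than in DMSO replicate 1. In cucurbitacin I most were again higher in replicate 2, namely Wt1, Tbx18, Tcf21, Aldh1a2, Bnc1 and Msln, the last with 3 counts in each library. Upk1b, at 10.5 and 9.17 CPM, and Upk3b, at 0.205 and 0.181 CPM (5 and 4 counts), were not. The part of epicardial cells in the collagen levels was not tested.

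Markers of other cell types that make collagen also differed between the groups. Their counts stand beside 13.9% of all genes tested that rose and 19.5% that fell, and no list was tested as a set. Of 8 fibroblast and mesenchyme markers, 7 were tested, 6 fell and 0 rose, with summed levels of 605 and 862 CPM in DMSO and 213 and 378 CPM in cucurbitacin I, and Dpt was at 0 in every library. Pdgfra went from 247 and 265 CPM to 37.9 and 55.6 CPM. Fbln1, which supplied most of the treated sums, was at 270 and 489 CPM in DMSO and 142 and 296 CPM in cucurbitacin I. It did not pass (-0.80, adjusted p = 0.196). Endothelial markers fell in 6 of 8 and rose in 0, with sums of 140 and 173 CPM in DMSO and 25.8 and 35.0 CPM in cucurbitacin I. Blood markers fell in 6 of 8, from sums of 256 and 312 CPM to 43.9 and 53.4 CPM. Of 8 endoderm markers, 6 fell and 0 rose, from sums of 537 and 812 CPM to 95.7 and 54.9 CPM. Afp held 401 and 669 CPM of the DMSO sums. Dab2, which did not pass, held 88.4 and 45.0 CPM of the treated sums. Smooth muscle markers rose in 7 of 8 and fell in 0, from sums of 4430 and 6570 CPM to 40600 and 33100 CPM. Cardiomyocyte markers rose in 5 of 8 and fell in 0, from sums of 6340 and 7490 CPM to 12400 and 15100 CPM. Cardiomyocyte markers such as Tnnt2, at 1880 and 2570 CPM, were abundant in the DMSO libraries. The collagens did not move in a single direction beside these markers. Col1a2, Col14a1, Col15a1 and the type IX chains fell, while Col1a1 and Col3a1 did not pass. Among basement membrane chains, Col4a1 and Col4a2 rose and Col18a1 fell. Wherever the number that rose or fell is given as 0 for a marker list, it was also 0 with DESeq2 and with edgeR at an unadjusted p below 0.05. The part of these cell types in the collagen result was not tested.

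Collagen chains need a dedicated set of enzymes and chaperones, and 50 genes of this pathway were examined. Prolyl and lysyl hydroxylases modify the chain in the endoplasmic reticulum, HSP47 and prolyl isomerases help it fold, procollagen proteinases trim the ends outside the cell, and lysyl oxidases cross-link the result. Of the 50 genes, 47 were tested, 12 rose, 9 fell and 26 did not pass, beside 13.9% and 19.5% of all genes tested, with a median log2 fold change of 0.10. Scaling by totals gave 7 higher and 16 lower, and leaving out DMSO replicate 1 gave 0 and 8. The same settings moved the counts over all genes, to 1059 higher and 4767 lower with totals and to 389 and 1461 without DMSO replicate 1. The counts in the groups of pathway genes are small and describe single genes only.

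Of 15 hydroxylation and glycosylation genes, 3 rose, 1 fell and 11 did not pass, where 13.9% of all genes tested rose and 19.5% fell. P4ha1, the catalytic subunit of the main prolyl hydroxylase, rose from 54.7 and 58.7 CPM to 95 and 73.6 CPM (log2 fold change 0.57, SE 0.14, adjusted p = 0.0316). Crtap, part of the prolyl 3-hydroxylase complex, rose by 0.57 (adjusted p = 0.0159) and Plod1, a lysyl hydroxylase, by 0.56 (adjusted p = 0.0423). Leprel2, the older symbol of P3h3, fell from 38.9 and 42.2 CPM to 8.89 and 14.1 CPM (-1.82, SE 0.23, adjusted p = 0.00580). Plod2, the lysyl hydroxylase of the telopeptides, was at 114 and 159 CPM in DMSO and 333 and 157 CPM in cucurbitacin I, overlapping levels that did not pass (0.85, adjusted p = 0.130). Among 8 folding and export genes 3 rose and 0 fell with edgeR, DESeq2 or at an unadjusted p below 0.05: Creb3l1 (1.02), a transcription factor that drives collagen secretion, Tmem38b (0.65), a cation channel of the endoplasmic reticulum, and Mia3 (0.34), the cargo receptor that loads procollagen for export. Serpinh1, which encodes HSP47, was at 1440 and 1550 CPM in DMSO and 1790 and 1710 CPM in cucurbitacin I and did not pass (0.23, adjusted p = 0.275).

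Of 7 tested genes for propeptide cleavage outside the cell, 1 rose and 2 fell, shares near those of all genes tested (13.9% and 19.5%). Pcolce, an enhancer of the C-proteinase, rose from 183 and 213 CPM to 336 and 295 CPM (log2 fold change 0.67, adjusted p = 0.0163), while its relative Pcolce2 had 72 and 93 counts in DMSO and 0 in both cucurbitacin I libraries. This was at least 36.1-fold lower by the 95% counting interval, and 44.8-fold lower with the treated group set to 3 counts in all. Adamts3, an N-proteinase, fell by 0.73 (adjusted p = 0.0258). Of the 5 lysyl oxidase genes, Lox fell, from 2.61 and 6.55 CPM to 0.820 and 0.633 CPM (-2.64, SE 0.54, adjusted p = 0.0183), and Loxl2 rose, from 38.5 and 49.1 CPM to 165 and 102 CPM (1.61, SE 0.26, adjusted p = 0.00981). Loxl2 is best known for cross-linking type IV collagen.

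Collagen receptors moved in opposite directions, with 4 of 8 higher and 3 lower, beside 13.9% and 19.5% of all genes tested. Itga1, the integrin subunit that prefers type IV collagen, rose from 47.0 and 57.3 CPM to 271 and 140 CPM (log2 fold change 1.98, SE 0.32, adjusted p = 0.0104). Its partner Itgb1 rose by 1.06 (adjusted p = 0.0135), Itga10 by 1.07 (0.0118) and Ddr1, a receptor tyrosine kinase that also binds type IV collagen, by 0.98 (0.0173). Ddr2, the receptor tyrosine kinase that binds fibrillar collagens, fell from 28.0 and 28.5 CPM to 4.14 and 7.14 CPM (-2.33, SE 0.27, adjusted p = 0.00463). Itga2 fell by 2.08 (adjusted p = 0.0375) and the collagen uptake receptor Mrc2 by 0.82 (0.0204). Of 4 tested breakdown genes, Mmp2, a gelatinase, fell by 2.09 (adjusted p = 0.00529), Mmp14, a membrane-bound collagenase, fell by 0.46 (0.0361), and 0 rose with edgeR, with DESeq2 or at an unadjusted p below 0.05. Mmp8 and Mmp13 had at most 1 count in a library.

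**Figure D5:**
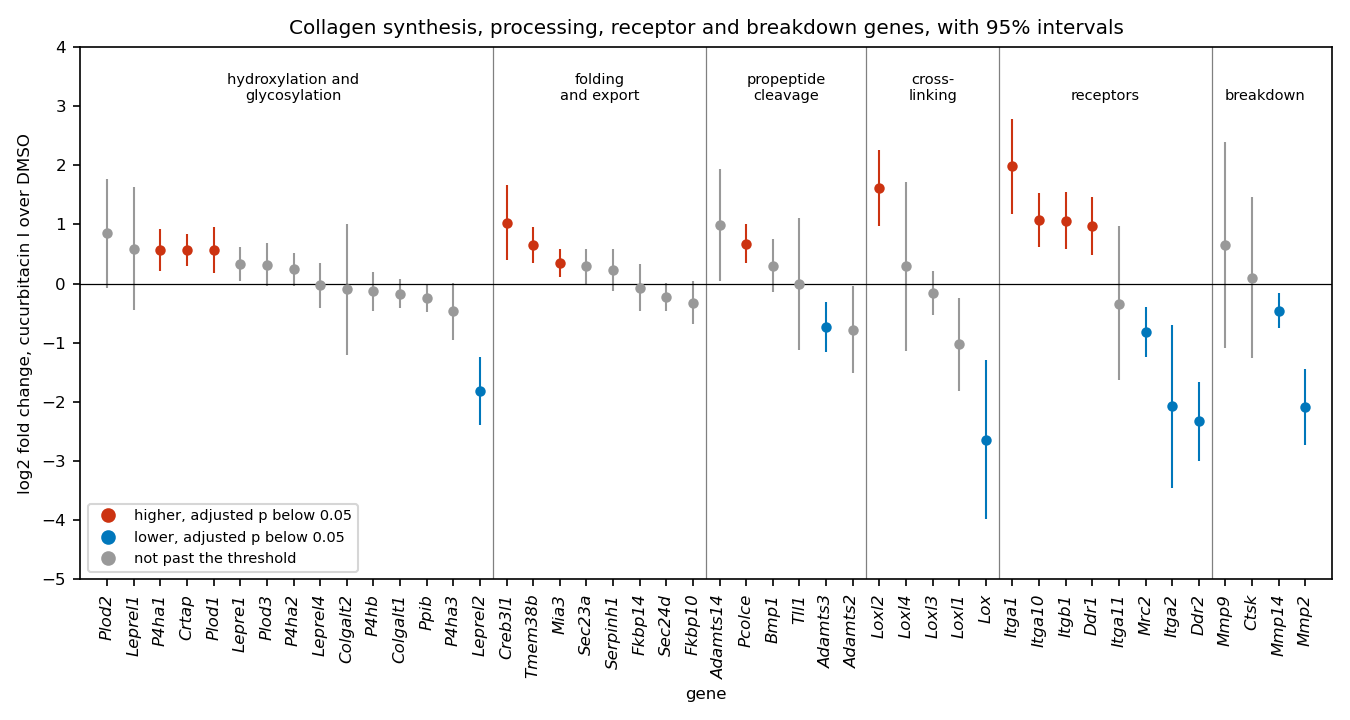
Points give the log2 fold change of cucurbitacin I over DMSO for the tested genes of collagen synthesis, processing, receptors and breakdown, with bars for the 95% interval of the single gene; Pcolce2, at 0 counts in cucurbitacin I, is left out. Most synthesis genes lie near 0, with Leprel2 (-1.82) apart, while Itga1 (1.98) and Loxl2 (1.61) are among the highest and Lox (-2.64) and Ddr2 (-2.33) among the lowest.

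In the authors' deposited table, which holds their own DESeq2 comparison, 7 collagen chain genes were higher, 17 lower and 20 not called at the same threshold. The calls that differed from edgeR's were all for genes near the threshold: Col12a1 (log2 fold change 1.36 in the authors' deposited table, adjusted p = 0.0163) and Col8a1 (1.30, 0.0291) as higher, and Col6a6 (-1.73, 0.0125), Col19a1 (-1.44, 0.0245) and Col2a1 (-0.65, 0.0430) as lower.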

How the data were processed

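RNA-seq of 4 libraries (2 DMSO, 2 cucurbitacin I) was analysed from the table deposited by the authors. Its raw counts per gene and library were whole numbers as the authors deposited them. Per the file headers it also holds normalized values, a signal made by the authors as counts divided by a size factor, with the authors' log2 fold changes, test scores (standard error and Wald statistic) and p-values. The submitters' processing notes name STAR 2.3.0e, HTSeq 0.6.0 and mm10. Annotation release and strand setting: not given in the sources used here.

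One row per identifier was kept. Raw counts were filtered with filterByExpr (minimum count 10), scaled by TMM and tested with edgeR 4.0.16 (R 4.3.3) quasi-likelihood, with Benjamini-Hochberg adjustment over 16722 genes. With 2 residual degrees of freedom, edgeR's common coefficient of variation between replicate libraries was 15.7% and log2 fold changes a median SE of 0.17. Alternatives used DESeq2 1.42.0, limma 3.58.1 (voom), other scalings and filters, a replicate block and each library left out, and the pipeline was tested on simulated data. Levels per kilobase used the longest protein-coding transcript of GENCODE M21. This length was chosen after seeing that the union of exons includes retained introns (12426 against 5348 bases for Col1a2). Wilson intervals (95%) cover counting error only. Promoter windows are from RefSeq, GRCm38.p6.

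Collagen chain genes and all lists were chosen with earlier results of these data known. Every tested collagen was to be named, with 4 library values where its mean was at least 5 CPM or it passed. Up to 3 genes per pathway group with the smallest adjusted p were to be named, with Serpinh1, P4ha1, Plod2, Lox and Ddr2. Plod1, Itgb1, Ddr1, Itga2 and Mrc2 were added after their values were seen.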

Additional observations from a re-analysis of the deposited data

How the results depend on the processing

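Of the 19 collagen genes that passed, 11 kept direction and call under the alternatives of test, scaling, filter, block and left-out library, 8 lost the call under at least 1 of these and 0 changed direction. With library totals alone, 1059 of all genes tested were higher, and the pathway had 7 higher and 16 lower. At an adjusted p below 0.01, 2 collagens were higher and 8 lower, where 10.5% of all genes tested passed in either direction. Leaving out 1 library gave 389 to 2109 higher and 1461 to 3001 lower of all genes, 2 to 6 higher and 10 to 17 lower collagens, and 0 to 15 higher and 7 to 8 lower pathway genes, with the lowest counts of higher genes without DMSO replicate 1. With no low-count filter 7 collagens were higher and 19 lower.

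Same-numbered libraries deviated together with a correlation of 0.242, but with 2 pairs the numbers are not shown to pair the samples. The fit with the replicate number as a block gave 2660 higher and 3707 lower of all genes and 5 higher and 19 lower collagens.

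Per kilobase and without TMM scaling, collagens held 0.276% of the library in DMSO and 0.210% in cucurbitacin I. Basement membrane chains then held 38.5% of collagen in DMSO, cartilage chains 3.7% in cucurbitacin I, and other chains 7.61% and 7.65%. With the union of exons as length, an alternative chosen after seeing the data, these were 0.286% and 0.243% of the library, 44.7% for basement membrane and 33.8% for fibrillar chains in DMSO, and 7.29% and 6.78% for other chains. The union moved the DMSO and cucurbitacin I ratios of Col1a1 to Col1a2 to 1.17 and 25.4, Col4a5 to Col4a6 to 4.29 and 7.02 and Col6a1 to Col6a2 to 1.54 and 1.45, and the DMSO ratios of Col4a1 to Col4a2 to 1.23 and Col3a1 to Col5a2 to 5.28. In raw counts the DMSO ratios of Col6a1 to Col6a2 and Col3a1 to Col5a2 were 0.812 and 5.41. With Col2a1, Col11a1 and Col11a2 counted as fibrillar, 1 fibrillar and 0 cartilage genes rose.

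None of the genes whose log2 fold change changed sign had passed. Leaving out 1 library gave ranges of -0.69 to 1.17 for Col4a3, -1.73 to 1.21 for Col4a4, -0.17 to 1.52 for Col1a1, -0.33 to 0.08 for Col5a1, -0.40 to 0.07 for Col6a1, -0.46 to 0.31 for Col6a2, -1.09 to 0.25 for Col16a1 and -1.12 to 0.54 for Col8a2. With library totals Col4a3 was at -0.03.

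With 2 libraries per group the test is limited most where replicates differ, as for Col1a1, Col6a6 and Col13a1, and by counts for Col4a3, Col5a3, Col19a1 and the 4 genes not tested. The cause of these shifts was not tested.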
